A study of Mus musculus with 18 samples.

Results

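The 10 genes described here are the neuronal identity genes Elavl3, Elavl4, Rbfox3, Syt1, Snap25, Camk2a, Gad1, Gad2, Slc17a6 and Slc32a1, whose products mark neurons or a class of neurons. Their CpG methylation was read from 3 tables, 1 per tissue, by reduced representation bisulfite sequencing, which cuts DNA at CCGG with the enzyme MspI and so reads methylation mainly in CpG-rich fragments. A CpG site was taken when it lay in the gene body or within 5 kb of either end on GRCm38 and had at least 10 reads in both pools of its table. This gave 1386 sites in hypothalamus, 1731 in adipose tissue and 1458 in liver. Of these, 1322 sites were measured in all 3 tissues and 1737 in at least 1, out of 1485442 and 1894641 in the whole series. The RNA-binding protein genes lie at chr9:22015005-22052146 (Elavl3), chr4:110203737-110351939 (Elavl4) and chr11:118489760-118911597 (Rbfox3), and the synaptic genes at chr10:108497650-109010980 (Syt1), chr2:136713439-136782428 (Snap25) and chr18:60925307-60988152 (Camk2a). The transmitter genes lie at chr2:70561303-70602014 (Gad1), chr2:22621015-22693877 (Gad2), chr2:158607260-158615747 (Slc32a1) and chr7:51621830-51671126 (Slc17a6).

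The series asks what exposure to bisphenol A (BPA), a plastic monomer with weak oestrogenic activity, before birth does to DNA methylation in mouse offspring. The BPA group was born to C57BL/6 dams given 5 mg/kg of BPA in corn oil by gavage each day from day 1 to day 20 after conception, and the control group to dams given corn oil alone. Hypothalamus, gonadal adipose tissue and liver came from males of 3 weeks, with 3 samples per treatment and tissue, 18 in all. BPA offspring came from 4 litters and control offspring from 3, and the labels do not tie samples to litters.

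The tables hold 1 pool per treatment and tissue, each joining 3 samples, and the levels given are these pooled values of the authors, without any spread between animals. Tests on pooled reads compare pools, not animals or treatments. The tables number their pools 0 and 1. A label lists ctrl before bpa, and on that order alone pool 0 was read as control; if the numbering ran the other way, every BPA minus control difference below would change sign. The tissue differences between pools of the same number do not depend on it apart from the name of the pool. Median depth over the tested sites of the 10 genes was 94 reads in the BPA pool and 89 in the control pool of hypothalamus, 149 and 134 in adipose tissue, and 118.5 and 125 in liver. The samples are whole tissues, so a different mix of cells and a different level per cell cannot be told apart. On the tissue labels, lists of 10 hepatocyte and 8 adipocyte genes were read, and 7 of each had at least 5 sites measured in all 3 tissues. The 7 hepatocyte genes had a median control level of 79.1% in hypothalamus, 82.5% in adipose tissue and 50.0% in liver. Of them, 6 were lowest in liver and 1 in hypothalamus. The 7 adipocyte genes had medians of 78.8%, 57.0% and 65.3%, with 4 lowest in adipose tissue, 2 in liver and 1 in hypothalamus.

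Neurons switch on a shared set of genes for RNA processing, vesicle release and transmitter handling, and other cell types keep these genes silent, in part through the repressor REST and its corepressors. Many such genes start within CpG islands, stretches rich in CpG sites that usually carry little methylation whether or not the gene is active. Methylation inside a gene body or at CpG-poor control elements varies more between cell types. The hypothalamus holds both GABA-releasing and glutamate-releasing neurons beside glia and vessels.

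The promoter of Syt1 is shown because, among 13 RefSeq promoter windows found for 8 of the 10 genes, it was the window that held tested CpG sites. Syt1 encodes synaptotagmin 1, the calcium sensor of fast vesicle release. The sequence is the 250 bases before an annotated start, chr10:109010976-109011225 on the minus strand of GRCm38.p6, from RefSeq, read 5′ to 3′. Capitals mark the 7 CpG sites tested in all 3 tissues out of 8 in the window.

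Syt1: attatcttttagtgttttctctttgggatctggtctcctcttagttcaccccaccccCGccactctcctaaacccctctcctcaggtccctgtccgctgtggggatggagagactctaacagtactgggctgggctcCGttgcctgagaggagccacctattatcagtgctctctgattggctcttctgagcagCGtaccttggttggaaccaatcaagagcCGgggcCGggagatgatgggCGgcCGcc

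Every one of these 7 sites was lightly methylated in all 6 pools. The highest level was 9.02% of 122 reads, in control adipose tissue at position 109011087, where the BPA adipose pool had 3.35% of 179 reads. At that site hypothalamus had 0% of 73 reads in the BPA pool and 0% of 75 reads in the control pool, and liver had 4.82% of 166 and 2.41% of 166. The RefSeq window of 300 bases, which runs 50 bases past the start, holds 2 copies of CCGG, the MspI site, which reads the same on both strands. Of 32851 RefSeq windows of that length, 52.8% hold at least 1.

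**Figure D1:**
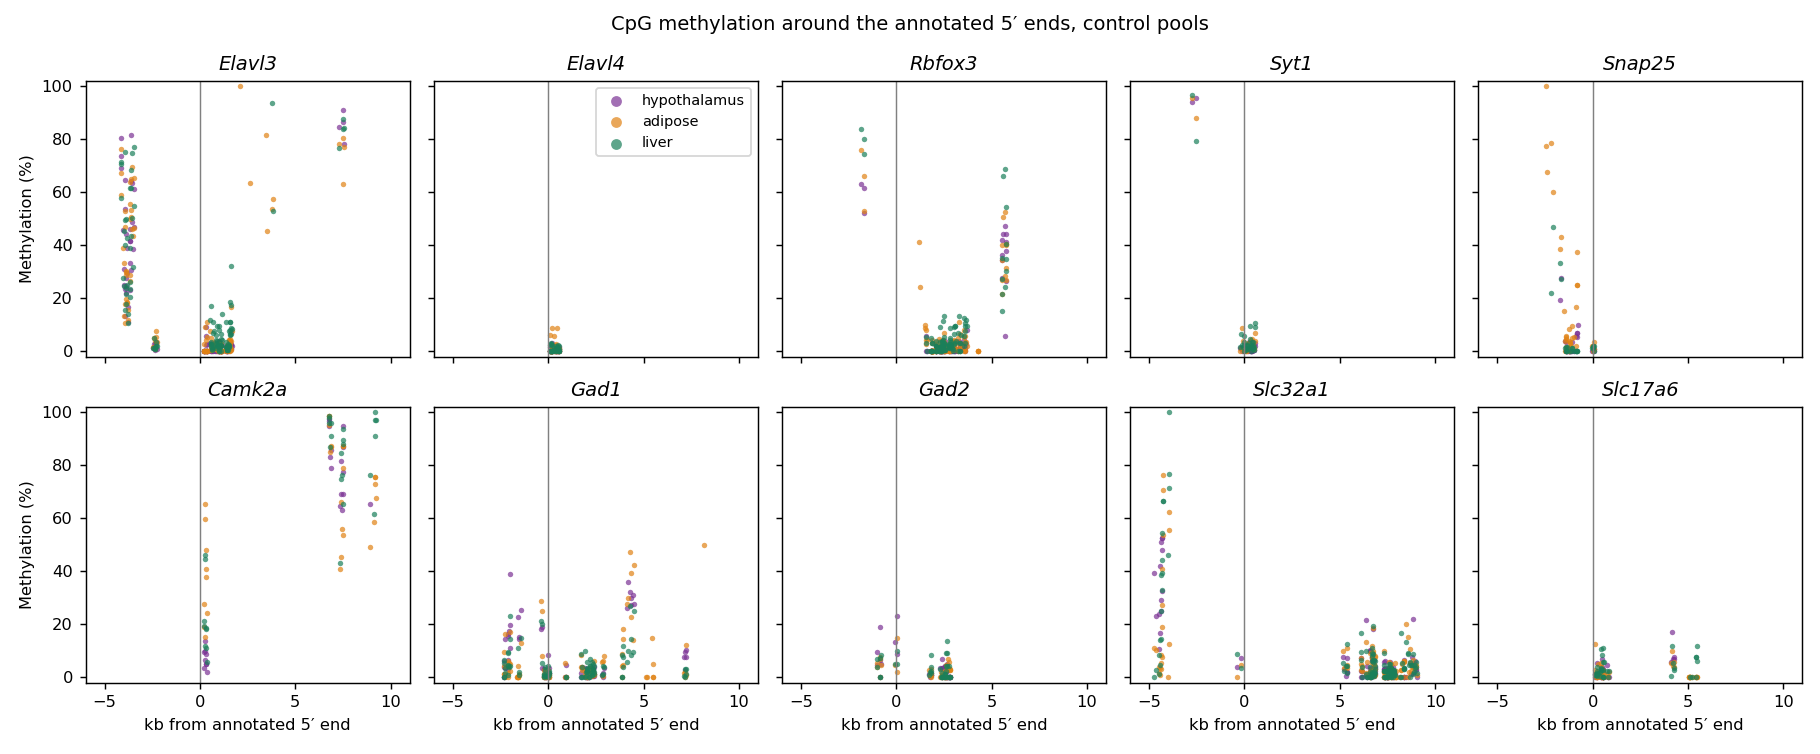
Methylation level (%) of each tested CpG site in the control pools of hypothalamus, adipose tissue and liver against distance (kb) from the annotated 5′ end of each gene. Dense clusters of sites near the start lie near 0% in all 3 tissues for most genes, while the 9 Camk2a sites just inside the gene lie lower in hypothalamus than in adipose tissue or liver.

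The other promoter windows held no tested site, so the promoters of the other genes were not measured in them. Those genes were read from tested sites near their annotated 5′ ends. Runs of at least 5 sites measured in all 3 tissues with gaps of at most 300 bp were treated as blocks, by a rule set after the data were seen. The 10 genes held 88 blocks with 1093 sites. Of these, 13 blocks with 362 sites reached, in whole or in part, within 2000 bp of an annotated 5′ end. Annotated 5′ ends are here the outer ends of the gene positions given above. The promoter windows found for Rbfox3, Gad1, Gad2 and Slc32a1 lie inside those positions, so distances from the starts in these windows differ. For Rbfox3 the window is at chr11:118760992-118761291, far from the 5′ end used. The block at the start of Syt1 (32 sites) had control levels of 0.807% in hypothalamus, 2.32% in adipose tissue and 2.83% in liver.

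The genes for RNA-binding proteins had similarly low levels in blocks near their annotated 5′ ends. Elavl3 and Elavl4 encode neuronal members of the Hu family, which stabilise and splice neuronal transcripts, and Rbfox3 encodes the splicing factor that the NeuN antibody detects. The start block of Elavl3 (67 sites) averaged 1.12% in control hypothalamus, 2.01% in adipose tissue and 5.54% in liver. In it, 13 sites were lower in hypothalamus than in liver and none was higher, by the call rule given below. The Elavl3 site with the smallest p against liver, at position 22050504, had 7.41% of 270 reads in hypothalamus and 32.0% of 337 reads in liver. The start block of Elavl4 (35 sites) stayed at 0.414%, 1.02% and 0.768% in hypothalamus, adipose tissue and liver. The Rbfox3 block that begins 1561 bp inside the gene (90 sites) had 0.832%, 1.89% and 3.51% in the same order, with 8 sites lower in hypothalamus than in liver.

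Most blocks near the starts of the transmitter genes were also lightly methylated. Gad1 and Gad2 encode the enzymes that make GABA, Slc32a1 encodes the transporter that loads GABA into vesicles (VGAT), and Slc17a6 encodes a vesicular glutamate transporter (VGLUT2). The Slc17a6 start block (28 sites) had 1.27% in control hypothalamus, 1.83% in adipose tissue and 2.48% in liver. The Gad1 block across its annotated 5′ end (18 sites) had 6.27%, 6.81% and 6.16%, and the Gad1 block from 1705 bp inside the gene (31 sites) had 1.56%, 2.11% and 3.02%. Upstream of it, the Gad1 block from -2331 to -1985 bp (15 sites) had 11.6% in BPA hypothalamus, 5.76% in BPA adipose tissue and 6.63% in BPA liver, and 12.6%, 4.92% and 6.28% in the control pools. Its highest site reached 38.9% in control hypothalamus, and 5 of its sites were called higher than in adipose tissue and 3 higher than in liver. The Gad2 block from 1715 bp inside the gene (6 sites) had 0.849%, 1.47% and 2.95%, and the Gad2 block from -1010 to -780 bp (6 sites) had 6.86%, 5.49% and 5.83%. No Slc32a1 block reached within 2000 bp of the 5′ end used here. The block nearest its promoter window, chr2:158610508-158610807, was the 6-site block at chr2:158612444-158612650, with 3.68%, 6.15% and 5.23%. The 42-site Slc32a1 block from 7291 to 7867 bp inside the gene had 1.96%, 1.71% and 2.18%. Snap25 encodes a SNARE protein of vesicle fusion, and the 6-site block at its 5′ end had 0.758%, 1.54% and 1.51%. The Snap25 block from -1685 to -805 bp (19 sites) had 3.97%, 10.7% and 4.00%, with single sites of up to 27.8%, 43.2% and 33.3%.

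Of the 13 blocks near a start, 2 were higher and 11 lower in control hypothalamus than in control adipose tissue, and 3 were higher and 10 lower than in control liver. The median differences were small, -0.617 points against adipose tissue and -1.21 points against liver. No count over other gene starts of the genome is given here. A difference of at least 10 points occurred in 1 of the 13 blocks, in Camk2a, in both comparisons. Camk2a encodes the alpha subunit of calcium/calmodulin-dependent kinase II, abundant at excitatory synapses. The block of 9 sites from 227 to 351 bp inside the gene (chr18:60925534-60925658) had 4.51% in BPA hypothalamus, 36.9% in BPA adipose tissue and 23.8% in BPA liver, and 7.67%, 40.6% and 23.5% in the control pools. Hypothalamus was the lowest tissue in both treatments, and single sites in control pools ranged from 2.19% to 13.8% in hypothalamus, 15.4% to 65.3% in adipose tissue and 5.88% to 46.2% in liver. Between control pools, 8 of the 9 sites were called lower in hypothalamus than in adipose tissue and 5 of the 9 lower than in liver. The Camk2a site at position 60925591 had 13.8% of 268 reads in hypothalamus, 65.3% of 314 in adipose tissue and 44.6% of 287 in liver. The difference was -51.5 points against adipose tissue (95% interval -57.7 to -44.3; Fisher's exact test, Benjamini-Hochberg adjusted p = 2.92e-35) and -30.8 points against liver (-37.6 to -23.5; adjusted p = 4.80e-14).

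Over whole genes the tissues lay close together. Over the 1322 shared sites, weighted by reads, the level was 37.7% in the BPA pool and 37.7% in the control pool of hypothalamus, 37.3% and 37.8% in adipose tissue, and 37.5% and 37.0% in liver. Over all shared sites of the genome, weighted by reads, the levels were 50.8% and 50.6% in hypothalamus, 53.4% and 53.6% in adipose tissue, and 51.7% and 51.2% in liver. The order of the tissues depended on the weighting. With every site weighted equally, the genome had 51.4% in the BPA pool and 51.3% in the control pool of hypothalamus, 49.2% and 49.3% in adipose tissue, and 49.4% and 49.4% in liver. The 10 genes then had 38.6% and 38.5%, 35.4% and 35.9%, and 36.4% and 36.4%, so hypothalamus was the highest tissue in both. The 10 genes had 39.9% of their sites under 10% in all 3 control pools, against 34.5% of all sites, and 13.8% over 80% in all 3, against 32.2%. These shares are descriptions without a test. Slc32a1 had the largest share of low sites of the 10 genes, 78.4%, and Camk2a had no low site among 94.

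**Figure D2:**
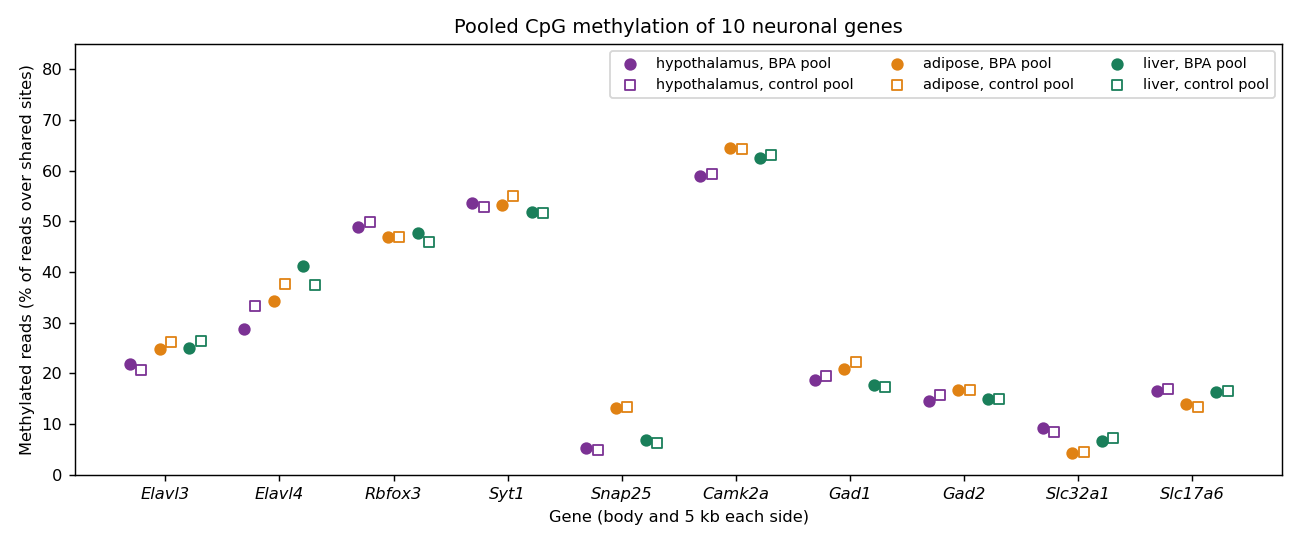
Methylated reads as a percentage of all reads over the sites shared by the 3 tissues, for each of the 10 genes. Filled circles are BPA pools and open squares control pools, and no gene spans more than 8.44 points between its control pools.

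The genes differed far more from each other than between tissues. In control pools, Camk2a had 59.3% in hypothalamus, 64.3% in adipose tissue and 63.0% in liver, Syt1 had 52.9%, 55.1% and 51.7%, and Rbfox3 had 49.8%, 46.8% and 46.0%. Elavl4 had 33.2%, 37.7% and 37.5%, and Elavl3 had 20.6%, 26.2% and 26.4%. With sites weighted equally, hypothalamus was instead above adipose tissue in both, at 29.2% against 27.2% for Elavl4 and 31.3% against 31.0% for Elavl3. Gad1 had 19.6%, 22.2% and 17.3%, Slc17a6 had 16.9%, 13.3% and 16.5%, and Gad2 had 15.7%, 16.8% and 15.0%. The lowest genes were Slc32a1, with 8.35%, 4.58% and 7.30%, and Snap25, with 4.90%, 13.3% and 6.31%.

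Hypothalamus had the lowest control level for 4 genes, Elavl3, Elavl4, Snap25 and Camk2a. Liver was lowest for 4 and adipose tissue for 2, and with every site weighted equally instead of by reads, hypothalamus was lowest for 2 genes. The widest gap between control pools was 8.44 points, for Snap25, whose 28 shared sites lie mostly in the 5 kb upstream inside the long noncoding gene Gm32659. No gene reached a span of 10 points, the limit set for naming genes of a like pattern. Weighted by reads, the BPA and control pools of 1 tissue differed in Elavl4 about as much as the control pools of different tissues did. The BPA and control levels were 28.8% and 33.2% in hypothalamus, 34.2% and 37.7% in adipose tissue, and 41.1% and 37.5% in liver. With sites weighted equally, the pools of a tissue lay closer, at 29.1% and 29.2%, 26.2% and 27.2%, and 28.2% and 28.5% in the same order.

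Single sites separated the tissues where gene averages did not. Control hypothalamus was compared with control adipose tissue and control liver at each site by a two-sided Fisher's exact test on pooled reads, adjusted over all sites of the genome tested in that comparison. The call rule asked for an adjusted p under 0.05 together with a change of 5 percentage points or more. Against adipose tissue, 197 of 1413 sites were called (13.9%), with hypothalamus higher at 150 and lower at 47. The share over the whole genome was 12.9%, with 9.08% higher and 3.79% lower. Against liver, 268 of 1352 sites were called (19.8%), 183 higher and 85 lower, and the genome-wide share was 16.9%, with 11.2% higher and 5.72% lower. The median difference over the sites of the 10 genes was 0 in both comparisons. Over the whole genome it was 0.074 points against adipose tissue and 0.13 against liver.

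Rbfox3 supplied most of these calls. It is a long gene of 421838 bp, with 646 and 608 of the tested sites, of which 129 were called against adipose tissue and 171 against liver. Hypothalamus was higher at 106 of the 129 and at 132 of the 171. Without Rbfox3, 68 of 767 sites were called against adipose tissue (44 higher, 24 lower) and 97 of 744 against liver (51 higher, 46 lower). These are 8.87% and 13.0% of the sites of the other genes, under the genome-wide shares.

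**Figure D3:**
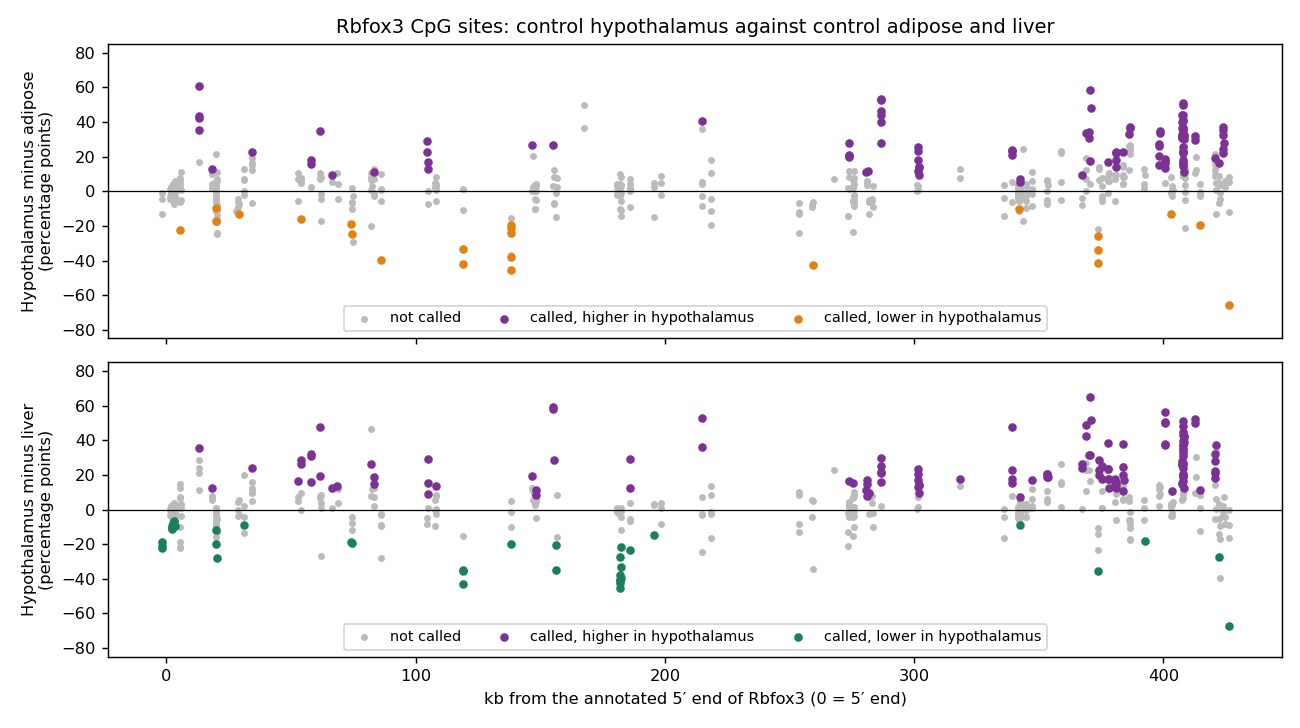
Difference in methylation (percentage points) between control hypothalamus and control adipose tissue (top) or control liver (bottom) at each Rbfox3 site, by distance (kb) from its annotated 5′ end. Called sites are coloured, and most lie above 0.

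Several Rbfox3 regions were higher in hypothalamus across neighbouring sites. The block at chr11:118503296-118504262 (38 sites), 407335 to 408301 bp from the 5′ end, had 50.8% in BPA hypothalamus, 20.1% in BPA adipose tissue and 24.8% in BPA liver, and 50.4%, 18.6% and 25.0% in the control pools. Between control pools, 28 of its sites were called higher than in adipose tissue and 27 higher than in liver, with none lower. The block at chr11:118624758-118624919 (6 sites) had 83.0%, 40.8% and 64.6% in the BPA pools and 83.2%, 38.1% and 63.4% in the control pools. At its site 118624878, hypothalamus had 80.2% of 167 reads and adipose tissue 26.8% of 328, a difference of 53.4 points (95% interval 45.0 to 60.4; Fisher's exact test, adjusted p = 8.01e-28). The block at chr11:118609778-118610263 (10 sites) had 19.6%, 2.56% and 4.19% in the BPA pools and 17.3%, 2.96% and 3.01% in the control pools. Both treatments thus showed the same order in these 3 blocks.

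The tissues compared did not always give the same order in Rbfox3. The site at position 118756341 had 88.9% of 225 reads in control hypothalamus and 29.5% of 315 in control liver, a difference of 59.4 points (52.3 to 65.3; Fisher's exact test, adjusted p = 1.67e-43). The block at chr11:118729176-118729759 (13 sites) had 51.0% in BPA hypothalamus, 44.5% in BPA adipose tissue and 68.1% in BPA liver, and 49.3%, 47.1% and 70.6% in the control pools. Of its sites, 9 were called lower in hypothalamus than in liver and none was called against adipose tissue. The largest Rbfox3 difference in each comparison, -65.6 points against adipose tissue and -67.2 against liver at position 118485331, rests on 12 hypothalamus reads, and the site lies in the body of the neighbouring gene Engase. Of the 45 Rbfox3 blocks, 15 were at least 10 points higher in control hypothalamus than in adipose tissue and 2 at least 10 points lower. Against liver, 18 were at least 10 points higher and 2 at least 10 points lower.

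Among the GABA genes, nearly all called sites were higher in hypothalamus. Gad1 had 14 higher and 3 lower against adipose tissue (16.2% of 105 sites) and 15 higher and 1 lower against liver (15.2% of 105). Gad2 had 4 higher (7.84% of 51) and 7 higher (14.3% of 49), with none lower. Slc32a1 had 10 higher and 1 lower against adipose tissue (9.48% of 116) and 6 higher and none lower against liver (5.17% of 116). Over the whole genome 12.9% and 16.9% of sites were called. Sites called higher outnumbered lower ones there too, at 9.08% against 3.79% for adipose tissue and 11.2% against 5.72% for liver. The higher Slc32a1 calls sat upstream, in a block of 13 sites at -4719 to -4307 bp from the annotated 5′ end (chr2:158602541-158602953), inside the long noncoding gene Gm14204. The lower call lay in the gene-body block at chr2:158613359-158614127 (37 sites). The upstream block had 39.9% in BPA hypothalamus, 10.2% in BPA adipose tissue and 24.9% in BPA liver, and 36.6%, 10.3% and 26.0% in the control pools. The site at 158602899 had 51.2% of 295 reads in control hypothalamus and 8.59% of 361 in control adipose tissue, a difference of 42.6 points (36.0 to 48.8; Fisher's exact test, adjusted p = 3.26e-32). Against liver, the largest Slc32a1 difference was 39.3 points at 158602541, where hypothalamus had 39.3% of 28 reads and liver 0% of 69 (Fisher's exact test, adjusted p = 4.04e-06).

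Nearly all Gad2 calls lay in the gene body. The site at position 22676965 of chromosome 2 had 89.6% of 67 reads in control hypothalamus, 44.3% of 228 in adipose tissue and 54.3% of 162 in liver. In BPA hypothalamus it had 74.6% of 59 reads, and the difference between tissues in the BPA pools was 27.0 points against adipose tissue and 15.0 against liver. In Gad1, the site with the smallest p in both comparisons was 70559790, which had 14.4% of 369 reads in hypothalamus, 0.881% of 454 in adipose tissue and 1.05% of 571 in liver. It lies upstream of Gad1, within the long noncoding gene Gad1os. The site with the largest Gad1 difference against adipose tissue, 21.6 points at 70559318, had a difference of -1.45 points in the BPA pools, so the order of tissues there was not the same in both treatments. For the glutamate transporter gene Slc17a6, 3 of 43 sites (6.98%) were called in each comparison, with 2 higher against adipose tissue and 1 higher against liver. Its largest differences, 25.6 points against adipose tissue at 51632912 and -25.8 points against liver at 51659015, rest on 22 and 55 hypothalamus reads.

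The other RNA-binding genes and the synaptic genes were read by the same rule. Over the whole genome 12.9% of sites were called against adipose tissue and 16.9% against liver. Elavl3 had 7 called sites against adipose tissue, 3 higher and 4 lower, and 22 against liver, 2 higher and 20 lower. In Elavl3, the largest called difference against liver was at 22016399, where hypothalamus had 35.4% of 161 reads and liver 69.2% of 263 (-33.8 points; Fisher's exact test, adjusted p = 3.38e-10). Elavl4 had 4 of 54 sites called against adipose tissue (7.41%) and 2 of 54 against liver (3.70%). Its site 110261299 had 83.3% of 246 reads in hypothalamus, 54.1% of 440 in adipose tissue and 52.1% of 330 in liver. Syt1 had 6 of 98 sites called against adipose tissue (6.12%) and 14 of 98 against liver (14.3%), with 7 higher and 7 lower in the second comparison. The Syt1 site 108647727 had 86.9% of 168 reads in hypothalamus and 51.7% of 327 in liver, and the Syt1 site 108524287 had 32.1% of 106 in hypothalamus and 81.4% of 118 in liver. Snap25 had 1 of 34 sites called against adipose tissue (2.94%) and 0 of 28 against liver. The called site, 136749314, was lower in hypothalamus, with 40.6% of 32 reads there and 72.8% of 114 in adipose tissue. Camk2a had 15 of 97 sites called against adipose tissue (15.5%), 4 higher and 11 lower. Against liver it had 27 of 94 (28.7%), 11 higher and 16 lower. Beyond its start, the 5-site Camk2a block at chr18:60950587-60950784 had 34.7% in control hypothalamus, 36.8% in control adipose tissue and 69.4% in control liver, and all 5 sites were called lower than in liver.

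The BPA pools, which come from other animals, gave a separate reading of the tissue differences. Of the sites called higher in control hypothalamus than in control adipose tissue, 145 of 149 measured in the BPA pools were also higher there, 136 of them by at least 5 points. Of those called lower, 42 of 46 were also lower, 35 of them by at least 5 points. Against liver, 179 of 182 higher sites and 82 of 84 lower sites kept their direction, with 167 and 68 at 5 points or more. Squared differences between control tissues exceeded counting error by a mean factor of 5.54 against adipose tissue and 7.15 against liver, a factor that by its construction includes true tissue differences. When the p-values were scaled by it, 18 sites remained called against adipose tissue: 11 in Rbfox3 and 3 in Slc32a1, all higher in hypothalamus, and 4 in Camk2a, all lower. Against liver 10 sites remained, all in Rbfox3 and all higher. Genome-wide shares are not given here for the kept directions or the scaled calls, so these counts describe the 10 genes alone.

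Exposure to BPA was compared with control within each tissue by the same test and call rule. In hypothalamus, 0 of 1386 sites of the 10 genes were called, where 0.00573% of all sites in the genome were, 0.00274% higher and 0.00299% lower. There were 50 sites with an unadjusted Fisher p under 0.05, 3.61% of those tested against 3.41% of all sites, and 24 of the 50 were higher in the BPA pool. In adipose tissue, 7 of 1731 sites passed, 5 of them higher and 2 lower with BPA. That is 0.404%, where the genome-wide share was 0.534%, with 0.252% higher and 0.283% lower. In liver, 1 of 1458 sites was called, 0.0686%, higher in the BPA pool, where the genome-wide share was 0.0257%, with 0.018% higher and 0.00774% lower. Unadjusted p-values under 0.05 numbered 202 in adipose tissue (11.7% against 10.1% of all sites), with 86 higher in the BPA pool, and 63 in liver (4.32% against 4.21%), with 27 higher. The median difference was 0 in each tissue. In the authors' deposited table, a credible difference of at least 5 points was reached by 12 of the sites in hypothalamus, 67 in adipose tissue and 11 in liver. These are 0.866%, 3.87% and 0.754% of the tested sites of the 10 genes. The shares of all sites in the genome were 0.858%, 2.99% and 0.995%. In that table the BPA pool was higher at 7 and lower at 5 of them in hypothalamus, at 32 and 35 in adipose tissue, and at 8 and 3 in liver, with pools read as above.

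**Figure D4:**
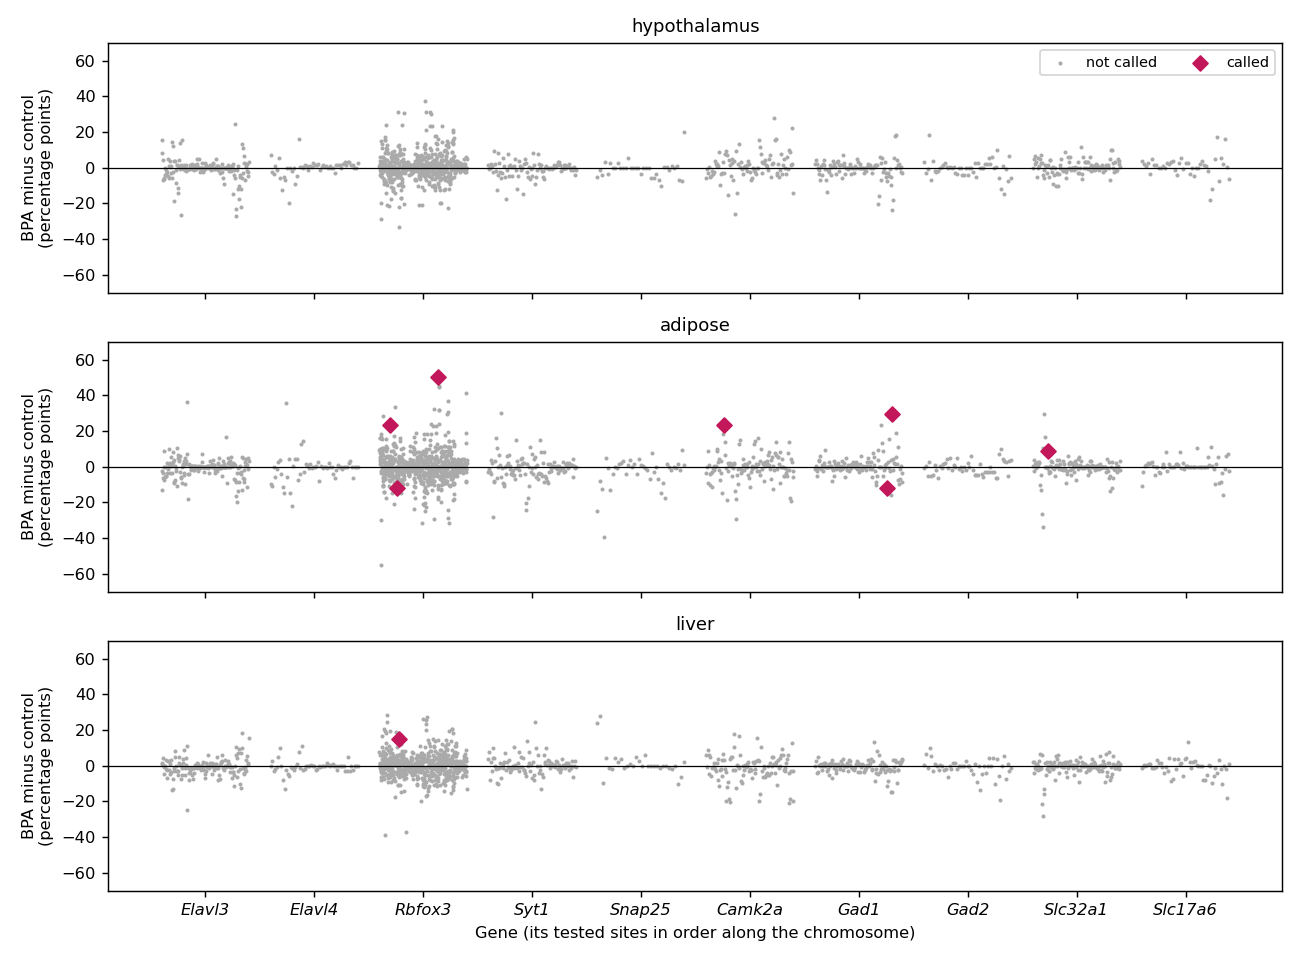
BPA minus control difference (percentage points) at every tested site of the 10 genes, by tissue, with sites of a gene in order along the chromosome. Diamonds mark the called sites, 0 in hypothalamus, 7 in adipose tissue and 1 in liver.

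The called sites were in Camk2a, Gad1, Rbfox3 and Slc32a1, and no site of Elavl3, Elavl4, Syt1, Snap25, Gad2 or Slc17a6 was called in any tissue. The Camk2a site at position 60934493, 9.19 kb inside the gene, had 96.4% of 84 reads in BPA adipose tissue and 73.0% of 74 in control adipose tissue. The difference was 23.5 points (95% interval 12.6 to 34.8; Fisher's exact test, adjusted p = 0.0149). Its 4 neighbours within 100 bp were also higher in the BPA pool, by 6.47 to 26.4 points, though none of them was called. CpG sites this close share reads and are not independent. In liver the same site had 88.1% of 42 reads in the BPA pool and 100% of 36 in the control pool, which was not called.

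In Gad1, 2 body sites were called in adipose tissue, in opposite directions. The site at 70568553 had 0.546% of 183 reads in the BPA pool and 12.2% of 115 in the control pool, a difference of -11.6 points (-18.9 to -6.24; Fisher's exact test, adjusted p = 0.00858). In hypothalamus it had 0% of 115 reads in the BPA pool, which allows a share of up to 3.16% by the exact 95% interval, and 7.63% of 118 in the control pool. In liver it had 0.781% of 128 and 3.17% of 126. The hypothalamus and liver differences were not called (adjusted p = 1 by Fisher's exact test in both), and the 3 neighbours in adipose tissue differed by -0.886 to 1.29 points. The other Gad1 site, 70576174, had 85.1% of 67 reads in the BPA pool and 55.4% of 74 in the control pool (29.7 points, 14.7 to 42.8; Fisher's exact test, adjusted p = 0.0428). In hypothalamus and liver its differences were -23.6 and -14.4 points, on 10 to 62 reads per pool, and neither was called.

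Rbfox3 had 3 called sites in adipose tissue and 1 in liver. The adipose site at 118503889 had 46.5% of 127 reads in the BPA pool and 23.1% of 130 in the control pool (23.4 points, 11.8 to 34.1; Fisher's exact test, adjusted p = 0.0279). It lies in the 38-site block that was higher in hypothalamus, and 4 of its 5 neighbours within 100 bp were lower in the BPA pool. In liver the site had 44.7% of 47 reads in the BPA pool and 25.5% of 55 in the control pool, which was not called. The adipose site at 118530880 had 73.5% of 378 reads in the BPA pool and 85.2% of 331 in the control pool (-11.7 points, -17.4 to -5.70; Fisher's exact test, adjusted p = 0.0362), and its 4 neighbours were lower by 3.93 to 6.36 points without being called. The adipose site at 118808377 had 96.3% of 27 reads in the BPA pool and 46.2% of 26 in the control pool, the largest called difference at 50.1 points (26.7 to 67.8; Fisher's exact test, adjusted p = 0.0203). It is also the called site with the fewest reads. The liver site at 118533722 had 51.7% of 422 reads in the BPA pool and 36.6% of 396 in the control pool (15.0 points, 8.24 to 21.6; Fisher's exact test, adjusted p = 0.0484).

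The Slc32a1 site at 158612453, in the lightly methylated gene body, had 12.1% of 265 reads in BPA adipose tissue and 3.47% of 259 in control adipose tissue. The difference was 8.60 points (4.08 to 13.4; Fisher's exact test, adjusted p = 0.0483), and the neighbouring site 9 bp away had 9.47% of 264 and 10.0% of 250. In hypothalamus the Slc32a1 site had 4.70% of 149 reads in the BPA pool and 3.17% of 126 in the control pool, and in liver 2.51% of 199 and 2.43% of 206.

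**Figure D5:**
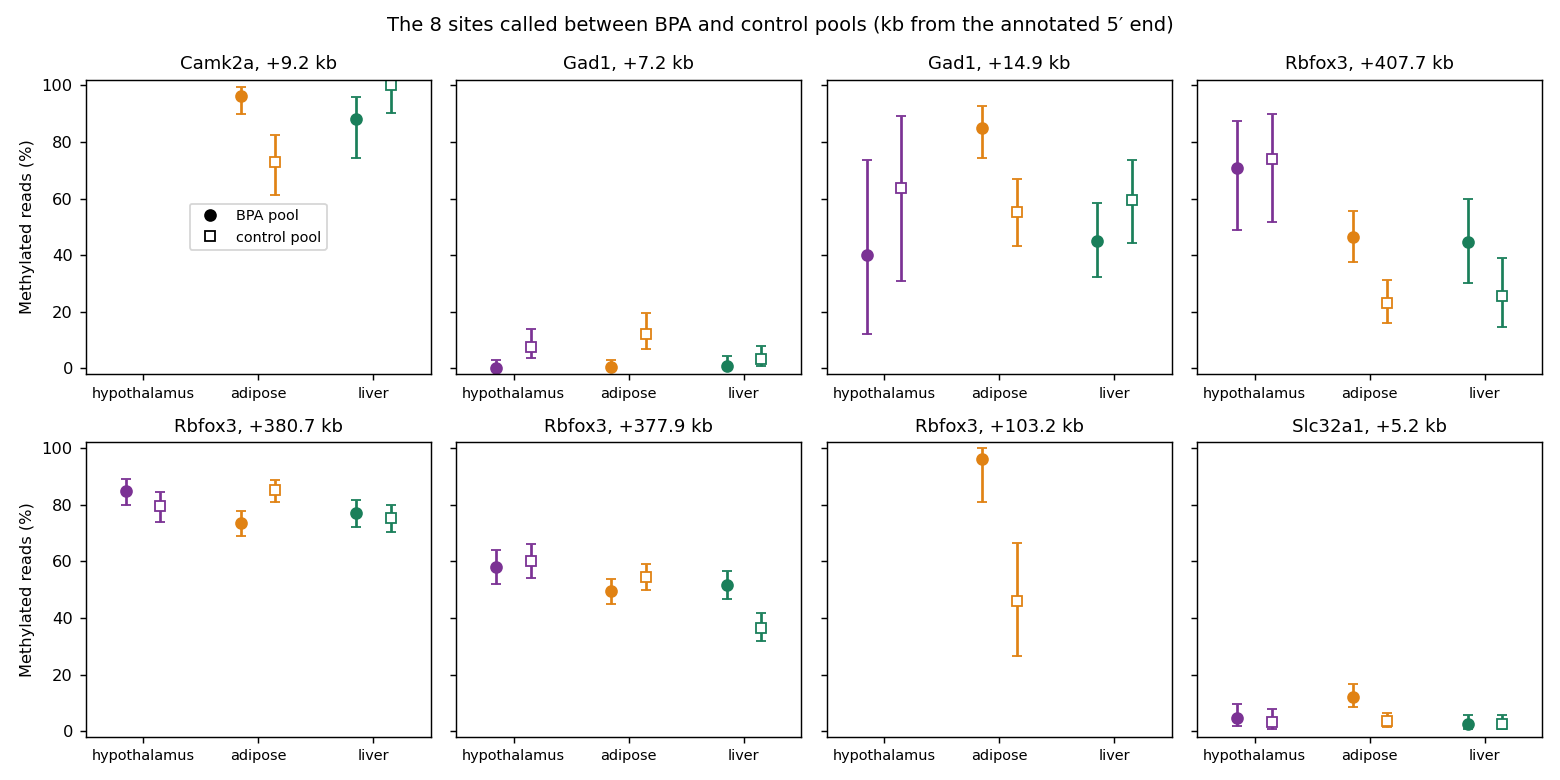
Methylated reads (%) in BPA pools (filled circles) and control pools (open squares) of each tissue at the 8 called sites, titled by gene and distance (kb) from the annotated 5′ end. Bars are exact 95% intervals for counting error. The pools stand apart in the tissue where each site was called, and a missing pair was not tested in that tissue.

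Fisher's exact test counts reads and makes no allowance for spread beyond counting error. In adipose tissue the squared differences between the pools exceeded counting error by a mean factor of 1.91 over the whole genome, in hypothalamus by 1.18 and in liver by 1.18. When p-values were scaled by this factor, none of the 8 sites was called, and the adjusted p was 1 for each adipose site and 0.212 for the liver site. By its construction the factor can hold differences between animals as well as between treatments. Just outside the rule, Elavl4 site 110238479 had 73.7% of 76 reads in BPA adipose tissue and 95.5% of 66 in control adipose tissue, with an adjusted p of 0.0622 by Fisher's exact test.

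In hypothalamus the smallest unadjusted p of the 10 genes, 0.00175 by Fisher's exact test, was at Gad1 site 70565467, which had 20.1% of 174 reads in the BPA pool and 36.0% of 150 in the control pool. Its adjusted p was 1. The smallest p per gene reached 0.116 for Snap25. The Slc32a1 site with the smallest p, 158614036, had 6.67% of 165 reads in the BPA pool and 0.581% of 172 in the control pool, and the Gad2 site 22676965 described above had 74.6% of 59 and 89.6% of 67. Sites of low depth leave wide intervals: at the Snap25 site 136749314 the difference was 19.8 points with an interval of -2.01 to 39.1 points.

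The log odds ratios of BPA to control were then set against each other between tissues, with a Wald test at each site. For hypothalamus against adipose tissue, 0 of 1385 sites passed an adjusted p of 0.05 (84 had an unadjusted p under 0.05), where 0.0266% of all sites did. For hypothalamus against liver, 0 of 1322 passed (42 unadjusted), where 0.00375% of all sites did. For adipose tissue against liver, 1 of 1453 passed (106 unadjusted), where 0.0493% of all sites did. It was the Rbfox3 site 118533722, with -5.08 points in adipose tissue and 15.0 points in liver. A site called in adipose tissue and not in hypothalamus is therefore not shown to differ between them.

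Other neuron genes were read in the same way. A list of 24 further neuron genes, such as Map2, Nefl and Syn1, had 291 of 2288 sites called between control hypothalamus and control adipose tissue (12.7%), 173 higher and 118 lower. Against liver, 381 of 2221 were called (17.2%), 208 higher and 173 lower. Both shares were near the genome-wide ones. Celf4, an RNA-binding protein gene, had 81 and 73 of these calls, and Rbfox1, which encodes a splicing factor related to Rbfox3, had 45 and 70. Of 23 of these genes with enough shared sites, 15 had their lowest control level in hypothalamus, 3 in adipose tissue and 5 in liver, weighted by reads. Nefl, for example, had 16.8% in hypothalamus, 20.5% in adipose tissue and 23.9% in liver. The median level of the 23 genes was nonetheless highest in hypothalamus, at 26.2%, against 26.1% in adipose tissue and 25.4% in liver. Weighted by reads, the whole genome was also lowest in control hypothalamus, and the share over all genes was not counted. Between BPA and control pools, 0 of 2273 sites of the list were called in hypothalamus, 13 of 2745 in adipose tissue (0.474%) and 1 of 2330 in liver (0.0429%). The genome-wide shares were 0.00573%, 0.534% and 0.0257%.

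Genes of the repressor complex and broadly expressed relatives were read beside them. Rest, Rcor1, Rcor2 and Sin3a, which encode REST and corepressors, had 33 of 700 sites called against adipose tissue (4.71%) and 33 of 657 against liver (5.02%). Rest itself had 13 sites higher and 2 lower in hypothalamus in both comparisons, and its control level was 14.6% in hypothalamus, 12.8% in adipose tissue and 10.9% in liver. Elavl1, Rbfox2, Snap23, Camk2d and Camk2g, which are expressed in many tissues, had 25 of 387 sites called against adipose tissue (6.46%) and 46 of 366 against liver (12.6%). Camk2d had 14 higher and no lower sites against adipose tissue, and Camk2g had 8 lower and none higher. Markers of other brain cells were counted by the same rule. The oligodendrocyte list had 173 of 957 sites called against adipose tissue (18.1%, 84 higher and 89 lower), and the astrocyte list had 106 of 607 (17.5%, 73 higher and 33 lower), where the genome-wide share was 12.9%. Against liver the oligodendrocyte list had 214 of 921 (23.2%, 79 higher and 135 lower) and the astrocyte list 121 of 573 (21.1%, 60 higher and 61 lower), where the genome-wide share was 16.9%. The part of cell mix in the tissue differences of the 10 genes was not tested.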

How the data were processed

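DNA from 18 samples was sequenced after MspI digestion and bisulfite treatment, per the labels' protocols, and aligned with BSMAP to GRCm38 (mm10), per the submitters' processing notes. The caller and the handling of PCR copies are not given in the sources used here. The authors deposited, for each CpG and pool, a count of covering reads from both strands, and per the file headers the deposited fraction is the share that was methylated. The authors' deposited Fisher p-value served as a check: p-values recomputed from counts and fractions matched it within 1% at 99.7% to 99.8% of sites. The authors' deposited credible difference, a score, served only as an alternative call rule. Every listed site had at least 3 reads in each pool.

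Methylated reads were recovered as count times fraction, rounded. Nuclear sites covered by 10 reads or more in each pool were tested by Fisher's exact test (two-sided, numba 0.67.0), adjusted by the Benjamini-Hochberg procedure over the genome and called at an adjusted p under 0.05 and 5 points. The procedure was tested on simulated data. Intervals are at 95%, exact Clopper-Pearson for levels and Newcombe for differences. They cover counting error only, since PCR copies cannot be told from independent molecules and neighbouring CpGs share reads. The Wald test between tissues added 0.5 to each cell. Gene positions, promoters and their sequences came from RefSeq tables of GRCm38.p6, with all 93 list entries matched. Strand was taken from the promoter table for 8 genes. Snap25 and Camk2a have no entry there, and the lower-coordinate end was taken as the 5′ end. Exons and introns were not analysed here. Positions are those of the C, counted from 1.

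The genes and lists were chosen with earlier results of these data known. Named sites are every site called between BPA and control, the site with the smallest p per gene and comparison, and the called site with the largest difference per gene between tissues. The genes named from each list are up to 2 with the most called sites per comparison. The blocks, the genes Map2, Nefl and Syn1, and other sites and blocks named were chosen after their values were seen.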

Additional observations from a re-analysis of the deposited data

Results flagged for a closer look

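At the Rbfox3 site 118533722 on chromosome 11, the difference between BPA and control pools differed between adipose tissue and liver (adjusted p = 0.0434 over all sites tested in both tissues, by a Wald test of log odds ratios, which is not an exact test). In adipose tissue the site had 49.4% of 520 reads in the BPA pool and 54.5% of 466 in the control pool, and in liver 51.7% of 422 and 36.6% of 396. In hypothalamus it had 58.0% of 269 and 60.1% of 276. Every pool had far more than 20 reads at this site. The test compares pooled reads, so the spread between animals is not part of it.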

How the results depend on the processing

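No paired analysis was possible because the tables hold 1 pool per treatment and tissue, and leaving out single replicates was not run for the same reason. Counts of called sites stayed within 1.5 times under 20 reads per pool, a minimum difference of 10 points and gene bodies alone. With p-values scaled by the excess spread, calls between BPA and control fell to 0 in adipose tissue, against 7, and to 0 in liver, against 1. Tissue calls fell to 18, against 197 (adipose tissue), and to 10, against 268 (liver). Genome-wide shares under the scaled rule are not given here. Without the deepest 0.1% of sites, the liver count was 0, and the cause was not tested. By the authors' deposited table, a credible difference of at least 5 points gave 67 sites in adipose tissue, 12 in hypothalamus and 11 in liver. Of these, 6, 0 and 1 were also called here. With sites weighted equally, hypothalamus was lowest for 2 genes instead of 4, and its control level was 38.51% instead of 37.71%, above adipose tissue at 35.9%. In gene bodies alone it was lowest for 6 genes, at 38.67%. The order of the tissues over the 10 genes turned with the weighting. A minimum of 20 reads for the site differing between tissues, chosen after seeing the data and not adjusted anew, could not remove that site, which had 269 reads or more in each pool. Sites with few reads, such as those of Snap25 in hypothalamus (median 33 reads in the BPA pool and 30 in the control pool), limit what differences could be detected.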

Other observations

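Over the 88 blocks, differences between BPA and control pools were small, given here without a test. In hypothalamus 55 blocks were higher and 33 lower in the BPA pool, with a median difference of 0.441 points, in adipose tissue 39 and 49 with -0.164 points, and in liver 43 and 45 with -0.0247 points. A difference of at least 10 points occurred in 1 block in hypothalamus, in no block in adipose tissue and in 2 blocks in liver. The largest in hypothalamus and the largest in liver were both Rbfox3 blocks in the part of the gene near its 5′ end. The 11-site block at chr11:118905825-118906081 had 49.0% in BPA hypothalamus and 35.5% in control hypothalamus, 32.1% and 35.0% in adipose tissue, and 31.0% and 37.0% in liver. The 5-site block at chr11:118898504-118898608 had 49.8% in BPA liver and 35.3% in control liver, 10.3% and 16.2% in adipose tissue, and 60.5% and 58.5% in hypothalamus. The second block is also one where hypothalamus had the highest level in both treatments.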
